A study of Mus musculus with 8 samples.

Results

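The 99 genes described here are the mouse carriers and pumps that move bile acids, organic anions, organic cations, drugs and lipids across membranes. They were chosen by gene symbol, as the Slc10a, Slc22a and Slc47a genes, the Slco genes and the Abca to Abcg genes, and make up 99 of the 27179 genes in the deposited table. Total RNA was sequenced from brain, heart, kidney and liver of mice, with 1 library from formalin-fixed, paraffin-embedded (FFPE) tissue and 1 library from flash-frozen tissue of each organ, 8 libraries in all. The series belongs to a toolbox for profiling frozen and FFPE tissue, and its design text names differential expression among the comparisons. The 8 groups were FFPE brain, frozen brain, FFPE heart, frozen heart, FFPE kidney, frozen kidney, FFPE liver and frozen liver. The labels give no strain, genotype, age or sex. Neither the number of animals behind a sample nor any pooling of tissue is stated there. With 1 library a group, the spread behind each test is how far the FFPE minus frozen difference varied between the organs. That variation may be technical or biological.

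Reads assigned to genes numbered 10180972 to 20526813 per library, and 60 to 93 of the 99 transporter genes had at least 1 read in a given library. Summed cell type markers matched the tissue labels: hepatocyte markers reached 42771 and 49745 CPM (reads of a gene per 1000000 reads, on the authors' scaled library size) in FFPE and frozen liver, cardiomyocyte markers 23309 and 25472 CPM in heart, proximal tubule markers 7089 and 10584 CPM in kidney, and neuron markers 1228 and 909 CPM in brain. Sex-linked genes differed between the preparations. Xist, the RNA of the inactive X chromosome in females, stood at 353 to 1668 CPM in the 4 FFPE libraries, at 522 CPM in frozen brain, and at 0.682, 0.0585 and 0.288 CPM in frozen heart, kidney and liver. The Y-linked Ddx3y stood at 12.5 to 21.2 CPM in the 4 FFPE libraries and at 61.8, 30.7 and 61.3 CPM in frozen heart, kidney and liver, with 0 reads in frozen brain. The 4 FFPE libraries thus held both Xist and Ddx3y above 10 CPM. Frozen brain held Xist at such a level with 1 Y-linked read (of Uty), and frozen heart, kidney and liver held Ddx3y at such a level with 7, 1 and 3 reads of Xist. Sex-linked reads thus also differed between organs, and the part of sex in the organ comparisons was not tested. For frozen brain against the other frozen organs, organ and the animals used cannot be told apart. Frozen liver also held 11.2 CPM of proximal tubule markers, against 1.72 CPM in FFPE liver.

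Hepatocytes take up bile acids and organic anions from blood through Slc10a1 and the Slco carriers, and pump bile acids, conjugates, phospholipid and sterol into bile with ATP-driven Abc proteins. Proximal tubule cells of the kidney take up organic anions and cations from blood through Slc22a carriers and pass them to urine through Slc47a1 and Abc pumps. Related carriers and pumps sit in brain capillaries and the choroid plexus, in mitochondria and peroxisomes, and in the channels that couple heart muscle excitability to ATP, while the Abce and Abcf proteins act in translation and transport nothing.

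Expression of the family lay mainly in liver and kidney. The 99 genes together took 6412 and 6198 CPM in FFPE and frozen liver and 3222 and 4327 CPM in FFPE and frozen kidney, against 1262 and 1236 CPM in FFPE and frozen heart and 1114 and 1159 CPM in FFPE and frozen brain. Of the 99 genes, 84 exceeded 1 CPM in at least 2 libraries and were tested, 8 fell below that filter, and 7 had under 3 reads in every library. A gene that passed the filter through 1 organ alone had to differ between organs, so the counts below describe the tested genes and are set beside the same counts over all 15819 tested genes. The organ with the highest level was the same in FFPE and frozen tissue for 75 of the 84 genes, where the share over all tested genes was 80.5%. These were liver for 31 genes, kidney for 25, brain for 10 and heart for 9. The other 9 genes, whose leading organ differed between preparations, included Abcb1b, Abcd2, Abcd4, Abcf2, Slc22a3, Slc22a21, Slc22a26 and Slco3a1.

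A stricter rule asked for a level at least 8-fold above every other organ in both preparations. It was met by 22 of the 84 genes, where the share over all tested genes was 14.1%. Liver held 9 of them (Abca6, Abcb4, Abcb11, Abcc3, Abcc6, Abcg5, Abcg8, Slc10a1 and Slco1b2), against a share of 2.87% over all tested genes. Kidney held another 9 (Abca13, Slc22a2, Slc22a6, Slc22a8, Slc22a12, Slc22a13, Slc22a19, Slc22a22 and Slco1a6), against a share of 1.97%. Brain held 3 (Abcg4, Slc22a17 and Slco1c1), against a share of 7.76%, and heart held 1 (Abcc9), against a share of 1.48%. A further 4 genes passed the rule in frozen tissue and not in FFPE tissue. They were Slc10a4 in brain, Abca12 in heart, and Slc22a26 and Slco4c1 in kidney. Abca12 stood 7.09-fold above the next organ in FFPE heart. Slco4c1 stood 6.03-fold in FFPE kidney and 9.36-fold in frozen kidney, so both lay close to the limit of the rule. Slc10a4 stood at least 6.87-fold above heart in FFPE brain. Heart had 0 reads of it there and was set to 3 reads, so that fold is a lower bound close to the limit.

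**Figure D1:**
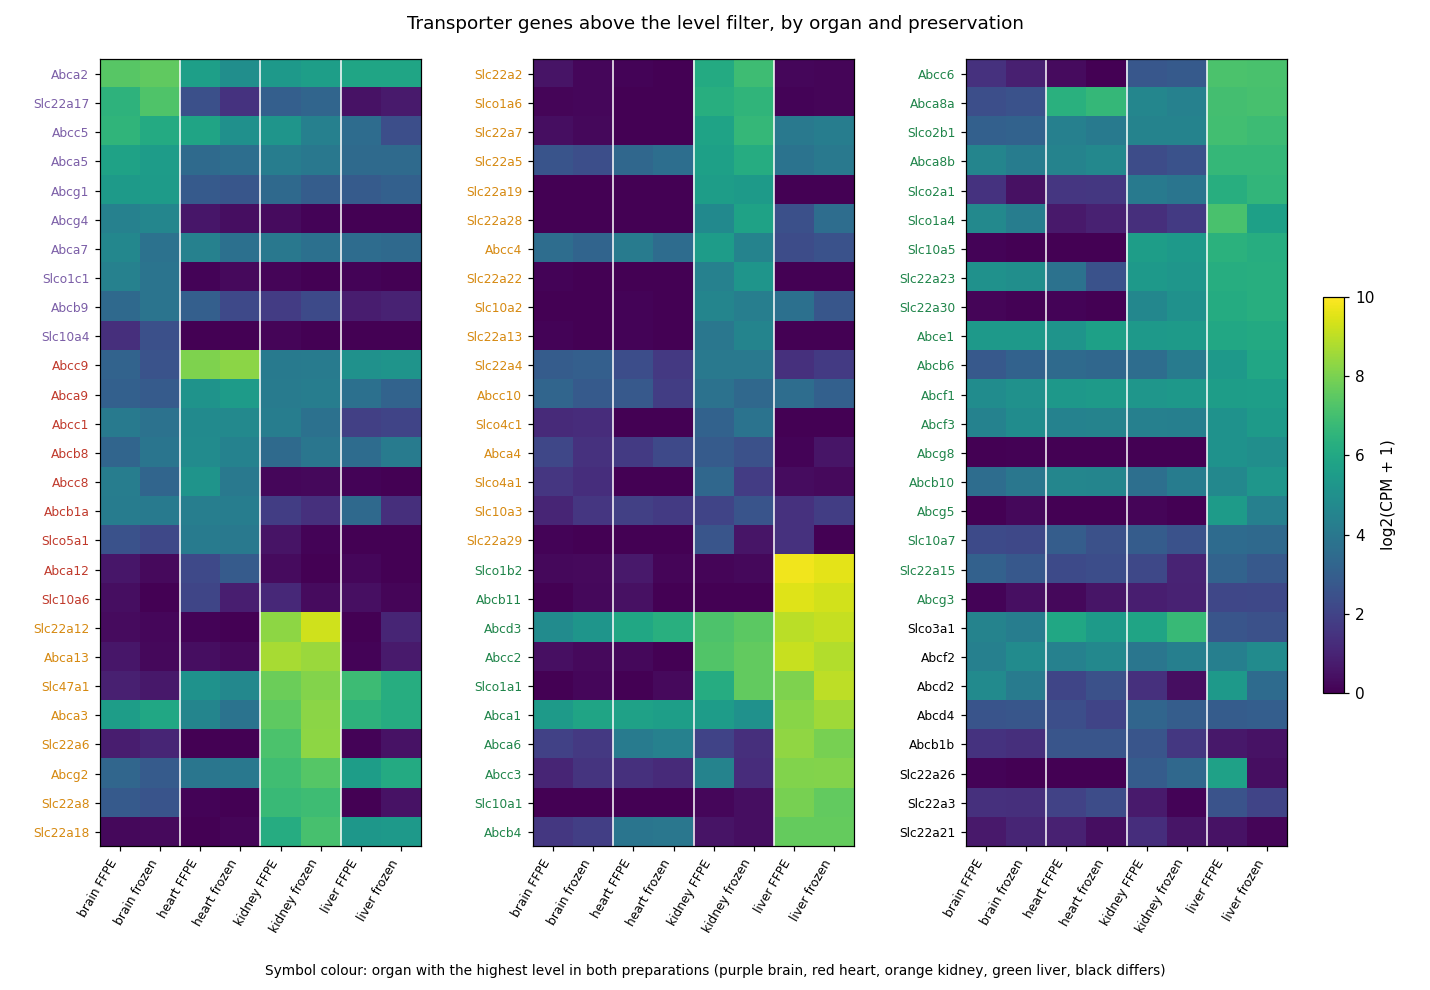
Heat map of log2(CPM + 1) for 81 of the 84 tested transporter genes (rows) in the 8 libraries (columns, FFPE left of frozen in each organ), with symbols coloured by the organ of highest level in both preparations. Genes highest in liver and genes highest in kidney form the largest blocks, and the FFPE and frozen columns of an organ look alike for most rows.

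In liver against the mean of the other organs, 40 of the 84 tested genes were called higher and 29 lower by limma at an adjusted p under 0.05, where 27.3% and 35.2% of all tested genes were called. The median log2 difference was 0.41 over the 84 genes and −0.13 over all tested genes. Among the genes higher in liver were the carriers that take bile acids and organic anions out of blood. Slc10a1, the sodium-coupled bile acid carrier of the hepatocyte, had 249 and 193 CPM in FFPE and frozen liver, 0.136 and 0.293 CPM in FFPE and frozen kidney, and 0 reads in the 4 brain and heart libraries. Its log2 difference to the other organs was 11.81 ± 0.55 (SE, limma adjusted p = 7.9e-07). Slco1b2, the hepatocyte carrier for bilirubin, bile acids and many drugs, had 879 and 775 CPM in FFPE and frozen liver and at most 0.607 CPM in any other library. Its log2 difference was 11.92 ± 0.57 (limma adjusted p = 8.41e-07). For genes with 0 to 3 reads in the other organs the fitted log2 difference depends on the 0.5 read that the authors added and is no measured fold.

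Slco1a1, a broad organic anion carrier of the hepatocyte and the proximal tubule, was shared between liver and kidney. It had 264 and 509 CPM in FFPE and frozen liver, 73.0 and 195 CPM in FFPE and frozen kidney, and at most 3 reads in each brain and heart library. Slco1a4, which carries organic anions and also sits in brain capillaries, had 138 and 49.7 CPM in FFPE and frozen liver, 1.54 and 2.22 CPM in kidney, 0.607 and 0.877 CPM in heart, and 24.8 and 17.9 CPM in brain. Slco2a1, the prostaglandin carrier, had 75.7 and 95.9 CPM in FFPE and frozen liver and 16.6 and 13.9 CPM in kidney. Slco2b1, a carrier of steroid sulfates, had 126 and 114 CPM in liver and 7.43 to 21.4 CPM in the other 6 libraries. The liver libraries lay above all others for each of these 4 genes.

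Promoter sequence was examined because many of these genes were high in 1 or both of the same organs. RefSeq windows of the 250 bases before the start (GRCm38.p6, the build of the files' mm10) were held for 79 of the 99 genes, as 92 windows. Searched on both strands were the site of the bile acid receptor FXR, written as an inverted repeat of AGGTCA spaced by 1 base, and an HNF4 site (CAAAGTCCA). Matches of the motifs were counted separately, whether or not they overlapped. At most 2 mismatches to the FXR repeat were found in Abcb11 and Slco1b2, against 1.14% of the 27025 genes with a window. At most 1 mismatch to the HNF4 letters was found in 13 of the 79 genes, against 8.04% of all genes. Of genes with a window, 9 of the 48 highest in liver or kidney held a match. So did 3 of the 16 other tested genes, the same share, and 1 of the 15 untested genes. A match describes letters and is not a site of binding. The windows with an FXR match, both of genes high in liver alone, are printed 5′ to 3′ on the gene's strand, with the matched letters in capitals.
Abcb11, chr2:69342617-69342866, minus strand, closest FXR match with 1 mismatch starting 63 bases before the start, and another farther up: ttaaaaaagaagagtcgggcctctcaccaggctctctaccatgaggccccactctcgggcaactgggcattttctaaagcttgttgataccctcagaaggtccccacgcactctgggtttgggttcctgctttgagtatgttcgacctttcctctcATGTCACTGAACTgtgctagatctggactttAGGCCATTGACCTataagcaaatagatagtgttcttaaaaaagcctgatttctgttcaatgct
Slco1b2, chr6:141629268-141629517, plus strand, FXR match with 1 mismatch starting 88 bases before the start: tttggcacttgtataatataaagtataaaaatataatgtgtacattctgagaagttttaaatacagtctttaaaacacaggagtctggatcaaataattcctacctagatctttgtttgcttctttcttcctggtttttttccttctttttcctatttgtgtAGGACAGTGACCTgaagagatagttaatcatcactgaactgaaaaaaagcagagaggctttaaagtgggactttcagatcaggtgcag

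The factors themselves were measured. Nr1h4, which encodes FXR, had 105 and 107 CPM in FFPE and frozen liver, 32.1 and 50.0 CPM in kidney, and at most 0.455 CPM in heart and brain. Hnf4a had 507 and 442 CPM in FFPE and frozen liver and 334 and 401 CPM in kidney. Of 13 listed genes of bile acid and xenobiotic sensing, all tested, 12 were called higher and 0 lower in liver, where 27.3% and 35.2% of all tested genes were called, and 7 were called higher and 4 lower in kidney, where the shares were 20.3% and 19.9%.

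The pumps of the bile canaliculus were also among the liver genes, and Abcb11 had the largest log2 difference of the family there. Abcb11, the bile salt export pump, had 726 and 643 CPM in FFPE and frozen liver, 0 reads in both kidney libraries and 0 to 5 reads in the heart and brain libraries. Its log2 difference to the other organs was 13.39 ± 0.94 (limma adjusted p = 5.85e-06). Abcb4, which moves phosphatidylcholine into bile, had 199 and 197 CPM in FFPE and frozen liver, 0.453 and 0.293 CPM in kidney, 13.6 and 14.5 CPM in heart, and 2.07 and 2.58 CPM in brain (log2 difference 6.40 ± 0.23, limma adjusted p = 3.43e-07). Liver lay far above all others for both, and heart stood second for Abcb4. Abcg5 and Abcg8, the subunits of the sterol exporter, had 43.3 and 19.3 CPM (Abcg5) and 33.1 and 29.7 CPM (Abcg8) in FFPE and frozen liver. Outside liver Abcg5 had 0 to 4 reads and Abcg8 had 0 or 1 read per library. Abcc2, which exports bilirubin glucuronide and other conjugates, had 578 and 464 CPM in FFPE and frozen liver and 156 and 192 CPM in FFPE and frozen kidney, with at most 6 reads in each heart and brain library.

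Pumps of the blood-facing side were also high in liver. Abcc3, which exports conjugates to blood, had 274 and 284 CPM in FFPE and frozen liver, against 21.2 CPM in FFPE kidney, 1.40 CPM in frozen kidney, and 1.06 to 1.86 CPM in the heart and brain libraries. Abcc6, the pump whose loss causes pseudoxanthoma elasticum, had 143 and 139 CPM in FFPE and frozen liver and 5.57 and 6.09 CPM in kidney. Abcc4, another exporter of conjugates and cyclic nucleotides, was called lower in liver, with 4.00 and 4.80 CPM in FFPE and frozen liver and 8.29 to 45.5 CPM elsewhere (log2 difference −1.84 ± 0.26, limma adjusted p = 0.000326). Abca1, which loads cholesterol onto HDL, had 299 and 375 CPM in FFPE and frozen liver and 32.1 to 56.3 CPM elsewhere. Among the Abca5 to Abca9 neighbours on chromosome 11, Abca6 had 322 and 246 CPM in FFPE and frozen liver and 16.9 and 19.9 CPM in FFPE and frozen heart. Abca8b had 99.8 and 100 CPM in FFPE and frozen liver and 3.99 to 24.4 CPM in the other libraries. Abca8a had 127 and 136 CPM in liver, with heart next at 81.3 and 99.6 CPM. The neighbours Abca9 and Abca5 were highest in heart and in brain instead.

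Levels can be ranked between genes only per length of exon. On that scale Slco1b2 led the family in liver, with 178 and 157 CPM per kb in FFPE and frozen liver, followed by Abcb11 with 141 and 125 CPM per kb. Slc10a1 had 113 and 87.7 CPM per kb, and Slco1a1 had 50.1 and 96.4 CPM per kb. Slc10a1 thus ranked above Slco1a1 in FFPE liver and below it in frozen liver. The peroxisomal fatty acid carrier Abcd3 had 76.0 and 84.9 CPM per kb in FFPE and frozen liver. In kidney the urate carrier Slc22a12 led, with 140 and 271 CPM per kb in FFPE and frozen tissue, and Slc47a1 followed with 63.1 and 83.0 CPM per kb. In heart Abcc9 led with 31.5 and 36.1 CPM per kb. In brain Abca2 and Slc22a17 led, with 20.2 and 22.5 CPM per kb for Abca2 and 19.4 and 33.8 CPM per kb for Slc22a17 in FFPE and frozen tissue, so their order differed between preparations.

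**Figure D2:**
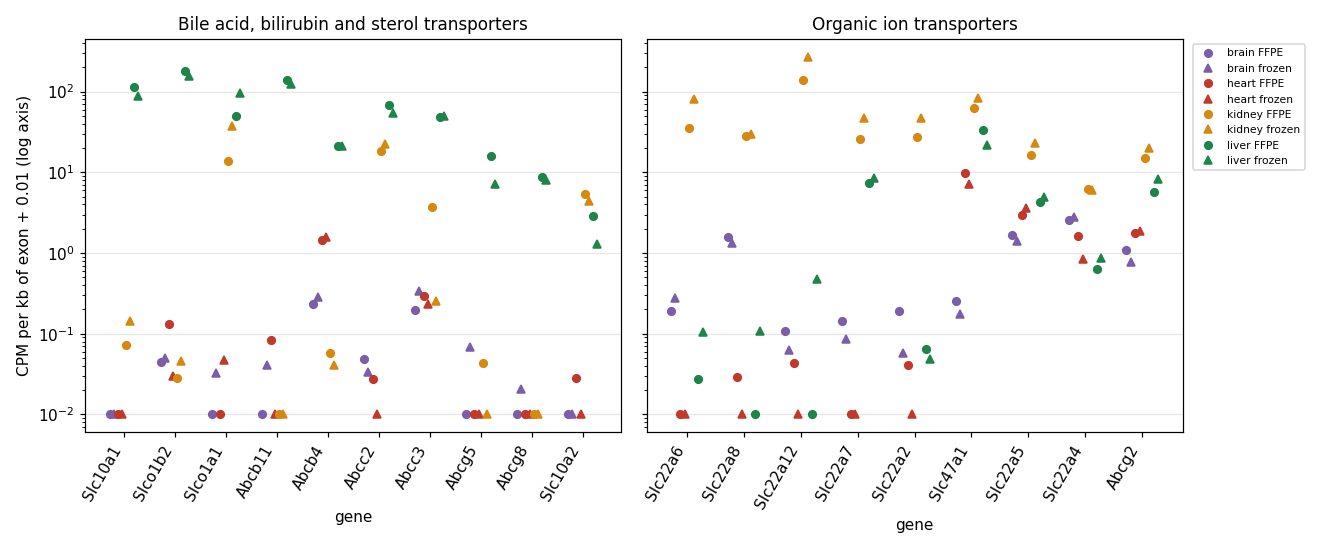
CPM per kb of exon (plus 0.01, log axis) of 10 bile acid, bilirubin and sterol transporters and 9 organic ion transporters, 1 point a library (circles FFPE, triangles frozen, colours for organs). Slc10a1, Slco1b2, Abcb11, Abcg5 and Abcg8 are high in the 2 liver libraries alone, while Slc22a6, Slc22a8 and Slc22a12 are high in the 2 kidney libraries, with Slc22a12 at 140 and 271 CPM per kb.

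Genes that make bile acids were also high in liver. Of 14 listed genes of bile acid synthesis and conjugation, 13 were called higher in liver and 0 lower, with a median log2 difference of 5.57, where 27.3% and 35.2% of all tested genes were called. In kidney 5 of the 14 were called higher and 5 lower, where the shares were 20.3% and 19.9%. Amacr, a racemase of bile acid side chains, was as high in kidney as in liver, with 51.4 and 75.4 CPM in FFPE and frozen liver and 45.3 and 110 CPM in FFPE and frozen kidney. Cyp7a1, the rate-limiting enzyme, had 274 and 232 CPM in FFPE and frozen liver and at most 1 read elsewhere. Slc27a5, which activates bile acids for conjugation, had 431 and 559 CPM in liver. Cyp46a1, which hydroxylates cholesterol in neurons, was the gene not called higher in liver and was called higher in brain, with 26.2 and 35.0 CPM in FFPE and frozen brain.

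In kidney against the mean of the other organs, 33 of the 84 tested genes were called higher and 24 lower by limma, where 20.3% and 19.9% of all tested genes were called. The count of lower genes fell when the frozen kidney library was left out, and so did the count over all tested genes. Organic anion carriers led. All 11 tested genes of the Slc22a organic anion transporter family were called higher in kidney, with a median log2 difference of 8.26. In liver 4 of the 11 were also called higher and 6 lower, where 27.3% and 35.2% of all tested genes were called. In heart 10 of the 11 were called lower, where 28.7% of all tested genes were called lower. Slc22a6, the basolateral carrier of para-aminohippurate and many drugs, had 143 and 318 CPM in FFPE and frozen kidney, 0.726 and 1.07 CPM in brain, 0.0689 and 0.384 CPM in liver and 0 reads in heart. Its log2 difference was 10.04 ± 0.48 (limma adjusted p = 6.07e-06). Slc22a8, its basolateral partner, had 110 and 118 CPM in FFPE and frozen kidney and 6.14 and 5.12 CPM in FFPE and frozen brain, with at most 4 reads in each liver and heart library. Brain was therefore second for both, and Slc22a8 was also called higher in brain (log2 difference 2.48 ± 0.82, limma adjusted p = 0.026). Slc22a8 is known in mice from the choroid plexus and brain capillaries.

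Slc22a12, which takes urate back from the tubule lumen, had 316 and 612 CPM in FFPE and frozen kidney (log2 difference 11.62 ± 1.07, limma adjusted p = 7.47e-05). Elsewhere it had 0 to 4 reads a library, other than 11 reads in frozen liver, the library that also held 11.2 CPM of proximal tubule markers. The part of that signal in the liver values was not tested. Slc22a7, another organic anion carrier, had 55.1 and 99.2 CPM in FFPE and frozen kidney and 15.3 and 17.9 CPM in liver, and both organs were called higher than the mean of the others. Slc22a19, an organic anion carrier of rodent proximal tubule, had 46.5 and 42.9 CPM in FFPE and frozen kidney and 0 reads in the other 6 libraries. Set against 3 reads per library, its kidney level was at least 204-fold higher in FFPE tissue and at least 147-fold higher in frozen tissue than in any other organ. Slc22a22, a prostaglandin carrier of mouse kidney, had 20.1 and 36.4 CPM in FFPE and frozen kidney, and Slc22a13 had 14.6 and 21.8 CPM. Neither had more than 1 read in any other library.

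Among organic cation carriers, several were also highest in kidney. Slc22a2, the basolateral cation carrier of the tubule, had 67.7 and 118 CPM in FFPE and frozen kidney and at most 8 reads in any other library. Slc47a1, which exchanges protons for organic cations at the luminal membrane, had 213 and 281 CPM in FFPE and frozen kidney, 114 and 74.2 CPM in liver, 32.9 and 24.3 CPM in heart, and 0.838 and 0.555 CPM in brain. Its order of organs was the same in both preparations. Slc22a3, a cation carrier of many tissues, was low throughout, with 4.89 and 3.17 CPM in FFPE and frozen liver and 0.0585 to 4.00 CPM in the other libraries. The carnitine carrier Slc22a5 had 49.8 and 71.7 CPM in FFPE and frozen kidney and 4.28 to 15.4 CPM elsewhere. The ergothioneine carrier Slc22a4 had 15.7 and 15.4 CPM in FFPE and frozen kidney and 1.58 to 7.10 CPM elsewhere.

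Other kidney genes came from several families. Slco1a6 had 77.0 and 92.5 CPM in FFPE and frozen kidney and at most 3 reads in any other library. Slco4c1, a carrier of cardiac glycosides in the proximal tubule, had 7.75 and 12.99 CPM in FFPE and frozen kidney and 1.28 and 1.39 CPM in brain, with 0 reads in heart and liver. Slc10a2, the sodium-coupled bile acid carrier of ileum and kidney, had 22.2 and 18.5 CPM in FFPE and frozen kidney and 11.9 and 5.38 CPM in liver. Abca13, a very large and little studied lipid transporter, had 412 and 356 CPM in FFPE and frozen kidney and at most 9 reads in any other library. Abcg2, which exports urate and drugs, had 121 and 162 CPM in FFPE and frozen kidney and 45.9 and 67.7 CPM in liver. Abca3, known for lung surfactant lipid, had 185 and 307 CPM in FFPE and frozen kidney and 13.2 to 88.2 CPM elsewhere.

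Transport partners outside the family were listed as well. Of 10 listed genes of other bile and organic ion transport, 9 were tested. Of these, 8 were called higher and 0 lower in kidney, where 20.3% and 19.9% of all tested genes were called, and 4 were called higher and 3 lower in liver, where the shares were 27.3% and 35.2%. Set against kidney, liver was higher for 1 and lower for 6 of the 9, where 18% and 23.2% of all tested genes were called. Slc51a and Slc51b, the subunits that let bile acids out at the basolateral side, had 7.66 and 14.05 CPM (Slc51a) and 6.03 and 6.32 CPM (Slc51b) in FFPE and frozen kidney, and at most 2 reads in any other library. Slc13a3, which supplies the dicarboxylate that Slc22a6 and Slc22a8 exchange, had 173 and 230 CPM in FFPE and frozen kidney and 14.2 and 7.78 CPM in liver. Pdzk1, a scaffold of brush border carriers, had 337 and 446 CPM in kidney and 41.1 and 51.2 CPM in liver.

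Set directly against each other, liver exceeded kidney for 29 of the 84 tested genes and was below it for 29 by limma, where 18% and 23.2% of all tested genes were called. The median log2 difference was −0.22 over the 84 genes and −0.08 over all. Higher in liver than in kidney were the canalicular pumps, with a log2 difference of 8.98 ± 0.29 for Abcb4 (limma adjusted p = 6.54e-07) and 14.70 ± 1.16 for Abcb11 (adjusted p = 2.35e-05). The log2 difference was 5.46 ± 0.47 for Slco1a4. Lower in liver were 8 of the 11 tested organic anion transporters, and none of the 11 was called higher. Slc22a30 and Slc10a5 were high in both organs, and neither was called between them. Slc22a30 had 69.9 and 76.0 CPM in FFPE and frozen liver and 23.5 and 32.7 CPM in kidney, and Slc10a5 had 83.6 and 74.1 CPM in liver and 46.1 and 40.5 CPM in kidney. The conjugate pump Abcc2 was in liver 3.71-fold its kidney level in FFPE tissue and 2.42-fold in frozen tissue (log2 difference 1.58 ± 0.47, limma adjusted p = 0.026). Slc22a7 stood 3.60-fold higher in kidney than in liver in FFPE tissue and 5.55-fold in frozen tissue.

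**Figure D3:**
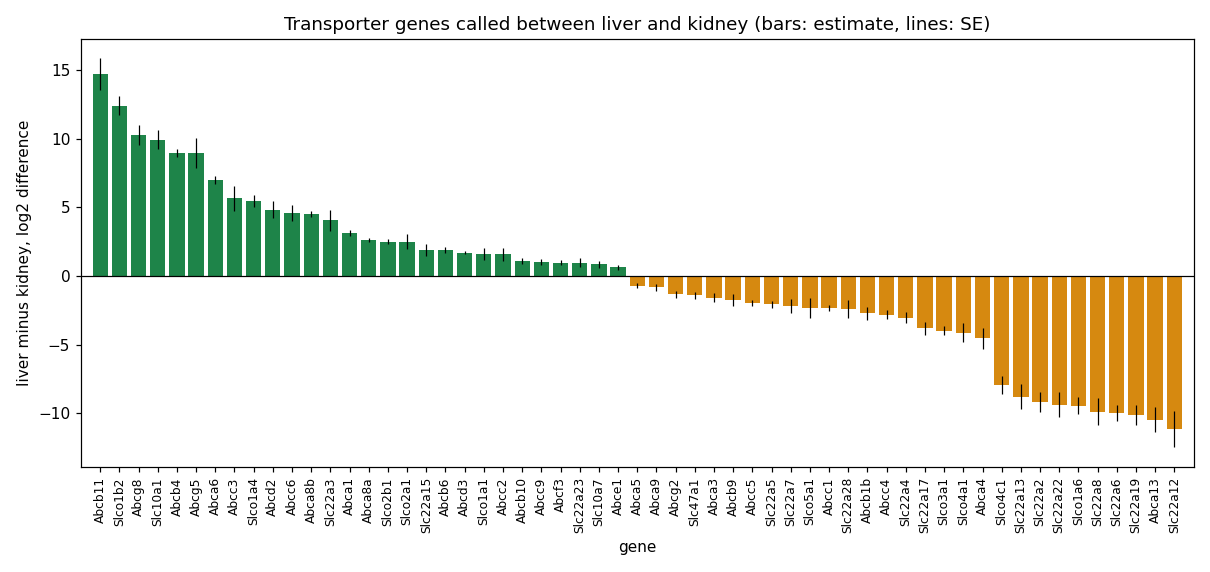
Liver minus kidney log2 differences (bars, with SE as lines) of transporter genes called between the organs, in order of size. Green bars are higher in liver, up to 14.70 for Abcb11, and orange bars are lower in liver, down to −11.14 for Slc22a12.

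In heart, 16 of the 84 tested genes were called higher and 45 lower than the mean of the other organs by limma, where 21.5% and 28.7% of all tested genes were called. With total reads in place of the authors' scaling the higher count was 9, where 1649 of all 15819 tested genes were called higher. Abcc9, the regulatory subunit of the ATP-sensitive potassium channel of muscle, had 264 and 302 CPM in FFPE and frozen heart, and liver came next with 32.3 and 35.1 CPM. Its log2 difference was 4.20 ± 0.19 (limma adjusted p = 1.52e-06). Abcc8, the related subunit best known from insulin-secreting cells, had 35.6 and 15.6 CPM in FFPE and frozen heart and 17.9 and 8.64 CPM in brain, against at most 3 reads in each kidney and liver library. The pore subunit Kcnj11 had 55.5 and 43.6 CPM in FFPE and frozen heart and 13.2 and 9.40 CPM in brain, and the pore subunit Kcnj8 had 16.4 and 22.7 CPM in heart. Abcc8 and Kcnj11 thus had heart first and brain second in both preparations.

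Smaller heart genes followed. Slco5a1, a carrier with no settled substrate, had 16.9 and 15.4 CPM in FFPE and frozen heart, 4.69 and 3.53 CPM in brain and 0 reads in liver. Abca12, a lipid transporter known from skin, had 3.56 and 6.34 CPM in FFPE and frozen heart and at most 0.503 CPM elsewhere. Abca9 had 34.1 and 43.5 CPM in FFPE and frozen heart and 6.31 to 18.1 CPM elsewhere. The drug pump Abcb1a, which guards the blood-brain barrier, had 18.4 and 17.6 CPM in FFPE and frozen heart and 17.5 and 15.7 CPM in brain, with the heart values just above the brain values. Markers listed for brain endothelium summed to 551 and 551 CPM in FFPE and frozen heart, 121 and 108 CPM in brain, and 204 and 230 CPM in kidney, where Abcb1a had 2.54 and 1.64 CPM. Of these 10 markers, 7 were called higher and 2 lower in heart, where 21.5% and 28.7% of all tested genes were called. Slc2a1, the glucose carrier of brain capillaries, had 4.63 and 4.09 CPM in FFPE and frozen heart and 28.4 and 22.1 CPM in brain. Cldn5 ran the other way, with 10.2 and 13.5 CPM in FFPE and frozen heart and 7.09 and 10.9 CPM in brain. The part of endothelium in the Abcb1a levels was not tested. Among carriers low in heart, Slc22a7 and Slc22a6 had 0 reads in both heart libraries. In bulk tissue, fewer cells of a type and less RNA per cell cannot be told apart.

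In brain, 17 of the 84 tested genes were called higher and 44 lower than the mean of the other organs by limma, where 34.7% and 31.6% of all tested genes were called. With total reads in place of the authors' scaling the higher count was 30, where 9043 of all 15819 tested genes were called higher. Of 5 listed sex-linked genes, 1 was called higher and 4 lower in brain, where the shares were again 34.7% and 31.6%. Xist had a log2 difference of 5.23 ± 2.05 (limma adjusted p = 0.0498) and Ddx3y one of −5.96 ± 1.85 (limma adjusted p = 0.0196). Slco1c1, the thyroxine carrier of brain capillaries and choroid plexus, had 20.05 and 13.6 CPM in FFPE and frozen brain and at most 2 reads in any other library. Its log2 difference was 7.56 ± 0.69 (limma adjusted p = 2.35e-05). Abcg4, a sterol exporter of neurons and astrocytes, had 19.8 and 22.8 CPM in FFPE and frozen brain and at most 7 reads elsewhere, while the related Abcg1 had 42.8 and 43.7 CPM in brain and 5.36 to 9.79 CPM elsewhere. Slc22a17, a receptor for the iron-binding protein lipocalin 2, had 87.7 and 153 CPM in FFPE and frozen brain and 0.413 to 8.54 CPM elsewhere. Abca2, a lysosomal lipid transporter of oligodendrocytes, had 169 and 188 CPM in FFPE and frozen brain and 29.6 to 58.4 CPM elsewhere. Abca5 and the lysosomal peptide carrier Abcb9 were also highest in brain in both preparations, with log2 differences of 2.02 ± 0.16 and 2.25 ± 0.37.

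Slc10a4, a synaptic vesicle protein of cholinergic and monoamine neurons, had 1.56 and 4.44 CPM in FFPE and frozen brain and at most 2 reads elsewhere. Among the lowest in brain relative to the other organs were Slco1a1, Slc10a5 and Slc47a1, with log2 differences of −8.02 ± 0.37, −7.01 ± 0.52 and −6.93 ± 0.21. Abcg2, a pump also present in brain capillaries, was called lower in brain as a whole, with 8.88 and 6.23 CPM in FFPE and frozen brain.

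Among genes that act inside the cell were several with a narrow range over organs. Abce1, which splits ribosomes after termination, had 35.1 to 66.3 CPM over the 8 libraries, and the translation factor Abcf1 had 28.03 to 48.3 CPM. Abcf2 had 14.4 to 27.6 CPM and Abcf3 had 19.02 to 42.6 CPM. Of these 4 genes, 3 were called higher in liver, with log2 differences of 0.40 to 0.83, where 27.3% of all tested genes were called. In kidney 2 were called lower, in brain 1 was called lower, and in heart 0 were called. The shares of all tested genes called lower were 19.9% in kidney and 31.6% in brain. In heart 21.5% were called higher and 28.7% lower. Abcb6, linked to porphyrin and heme, was highest in liver with 41.3 and 60.1 CPM in FFPE and frozen tissue and 5.92 to 16.7 CPM elsewhere. Abcd3 had 501 and 560 CPM in FFPE and frozen liver, 146 and 179 CPM in kidney, 61.6 and 78.4 CPM in heart, and 27.3 and 36.4 CPM in brain, and kept that order of organs in both preparations.

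Neighbouring genes could be high in different organs. On chromosome 19, Slc22a19, Slc22a26, Slc22a27, Slc22a28, Slc22a29, Slc22a30, Slc22a8 and Slc22a6 lie in a row between 7673061 (the start of Slc22a19) and 8628299 (the end of Slc22a6) on GRCm38. Slc22a28 was highest in kidney in both preparations, with 26.2 and 52.6 CPM in FFPE and frozen kidney, and Slc22a30 in liver. The coding sequences of this pair were 98.8% identical, and those of Slc22a27 and Slc22a29 97.3%, so reads may be split between them and their values are uncertain. Of 647 pairs compared, 14 were at least 85% identical, among them Slc22a5 with Slc22a21 (91.5%), Abcb1a with Abcb1b (89.1%) and the Slco1a genes with each other (85.2% to 89.4%). On chromosome 6 the Slco1 genes run from Slco1c1, highest in brain, through Slco1b2, Slco1a4 and Slco1a1, highest in liver, to Slco1a6, highest in kidney.

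Between FFPE and frozen tissue over the 4 organs, 1 of the 84 tested genes was called higher and 1 lower by limma, where 1.2% and 2.18% of all tested genes were called. The median log2 difference was 0.09 over the 84 genes and 0.07 over all. Abcc5, an exporter of cyclic nucleotides and conjugates, had 92.5, 56.7, 35.8 and 10.7 CPM in FFPE brain, heart, kidney and liver, against 68.3, 31.2, 19.4 and 4.32 CPM in frozen brain, heart, kidney and liver. It was higher in FFPE tissue in 4 of 4 organs (log2 difference 0.87 ± 0.15, limma adjusted p = 0.0266). Slco1a1 had 73.0 and 264 CPM in FFPE kidney and liver, against 195 and 509 CPM in frozen kidney and liver. In brain and heart it had 0 reads in both FFPE libraries, against 3 and 2 reads in frozen brain and frozen heart, so its log2 difference of −1.84 ± 0.32 (limma adjusted p = 0.0275) draws in part on these few reads. Abcc5 was not called when any 1 library was left out (limma adjusted p 0.056 to 0.152) or without a mean-variance trend (adjusted p = 0.174). Slco1a1 was not called with log2(CPM + 5), with quantile normalization, without a mean-variance trend or without both brain libraries (limma adjusted p = 0.202, 0.072, 0.16 and 0.107). With 1 library left out, it was called only where that library was FFPE heart (limma adjusted p = 0.0442), and the other adjusted p-values were 0.0549 to 0.167. Over all tested genes, 0 were called higher and 0 lower without a mean-variance trend, and 1 and 1 without both brain libraries. Few or none of all tested genes were called when a brain, kidney or liver library was left out. A call lost under those settings therefore cannot speak to Abcc5 or Slco1a1 in particular. Slc10a6, a carrier of sulfated steroids, was higher in FFPE tissue in 4 of 4 organs, on 0 to 43 reads a library. It did not pass the test (log2 difference 2.40 ± 0.56, limma adjusted p = 0.0586).

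Within single organs some genes differed far more, and there each value rests on 1 library a side. Among genes with at least 20 reads in 1 of an organ's libraries, differences past 2-fold were counted. In liver FFPE exceeded frozen tissue for 8 of 61 genes and was below it for 1, where the shares over all such genes were 4.82% and 2.67%. In kidney the counts were 10 and 3 of 70 genes, where the shares were 7.11% and 3.44%. In heart they were 5 and 0 of 50 (6.83% and 3.98%), and in brain 2 and 1 of 57 (4.77% and 4.97%). Slc22a26, an organic anion carrier, had 51.3 CPM in FFPE liver (745 reads), against 0.288 CPM in frozen liver (3 reads), a ratio of 178 with an exact 95% counting interval of 60.7 to 866. In kidney the same gene had 6.48 CPM in FFPE tissue and 9.48 CPM in frozen tissue. The kidney values thus lacked the gap seen in liver, and the difference between the organs was not tested.

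Slc22a27, below the filter, had 162 reads in FFPE liver and 4 in frozen liver. Slc22a29 had 24 reads in FFPE liver and 0 in frozen liver, at least 5.74-fold higher against 3 reads, and 117 reads in FFPE kidney and 8 in frozen kidney. The very long-chain fatty acid carrier Abcd2 had 40.6 CPM in FFPE liver and 10.3 CPM in frozen liver (ratio 3.95, exact interval 3.21 to 4.90). Slco1a4 had 138 CPM in FFPE liver and 49.7 CPM in frozen liver (ratio 2.77, exact interval 2.51 to 3.05). Abcb1a had 9.71 CPM in FFPE liver and 1.54 CPM in frozen liver. In kidney Abcc3 had 21.2 CPM in FFPE tissue and 1.40 CPM in frozen tissue (ratio 15.1, exact interval 10.0 to 23.8), and Abcc4 had 45.5 CPM in FFPE tissue and 20.95 CPM in frozen tissue. Slc22a6 had 143 CPM in FFPE kidney and 318 CPM in frozen kidney (ratio 0.449, exact interval 0.429 to 0.469). These intervals cover counting error only. Markers of fat and adrenal tissue also differed between the kidney libraries. The 4 adipocyte markers summed to 9.47 CPM in FFPE kidney, with 0 of them at 0 reads, and to 0.176 CPM in frozen kidney, with 2 at 0 reads. The 4 adrenal markers summed to 3.81 CPM in FFPE kidney and 0.293 CPM in frozen kidney, with 3 at 0 reads in frozen kidney, and the part of such tissue in the kidney differences was not tested.

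Several of these genes are known to differ between the sexes in mice. Slc22a26, Slc22a27, Slco1a4 and Abcd2 in liver, and Abcc3 and Abcc4 in kidney, are known as higher in females, and Slco1a1 and Slc22a6 in kidney as higher in males. Each was more than 2-fold apart between the preparations of that organ. The list leaves out genes without such a gap and cannot show how often sex bias and the differences go together. Xist had 1668 CPM in FFPE liver and 697 CPM in FFPE kidney, against 0.288 CPM in frozen liver and 0.0585 CPM in frozen kidney. The Y-linked Ddx3y, Uty, Kdm5d and Eif2s3y had 9.71 to 21.2 CPM in FFPE liver and 13.7 to 20.8 CPM in FFPE kidney, against 18.5 to 61.3 CPM in frozen liver and 13.99 to 30.7 CPM in frozen kidney. The part of sex in the FFPE differences was not tested, and preservation and the animals used cannot be told apart. In brain, where both libraries held Xist, Slco2a1 had 31 reads in FFPE tissue and 9 in frozen tissue. Choroid plexus markers summed to 242 CPM in FFPE brain and 126 CPM in frozen brain, with 1126 reads of Ttr in FFPE brain and 40 in frozen brain. Other genes of the same list ran the other way, as Clic6 had 4.97 CPM in FFPE brain and 9.12 CPM in frozen brain and Prlr had 8.54 and 23.5 CPM. Their part in the brain differences was not tested.

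**Figure D4:**
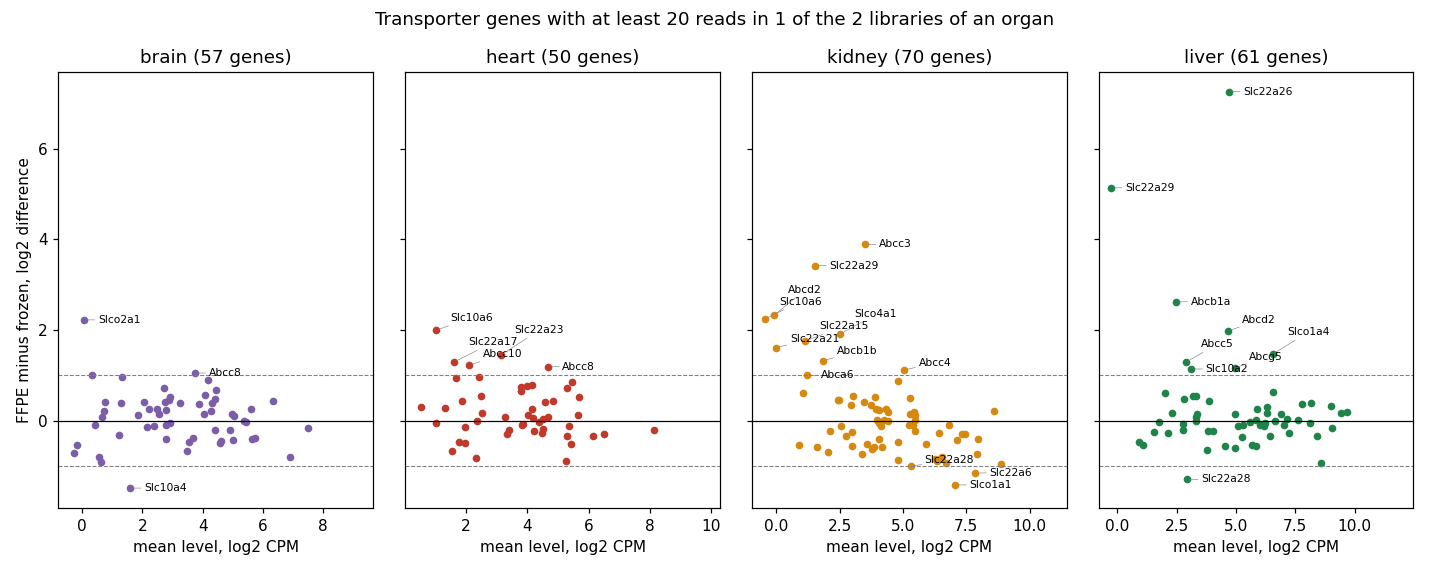
FFPE minus frozen log2 difference (y axis) against mean level in log2 CPM (x axis) for transporter genes with at least 20 reads in 1 of an organ's 2 libraries, 1 panel an organ, with dashed lines at 2-fold. Most of the 57, 50, 70 and 61 genes of brain, heart, kidney and liver lie between the lines, and Slc22a26 in liver (745 reads in FFPE, 3 in frozen tissue) and Abcc3 in kidney (468 and 24 reads) lie far above.

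Of the 8 genes below the filter, Slc22a27 had the most reads. The others were Abca14, Abca17, Abcb5, Abcc12, Slc22a14, Slc47a2 and Slco1a5. With under 3 reads in every library, Abca15, Abca16, Slc22a16, Slc22a20, Slco6b1, Slco6c1 and Slco6d1 could not be described at this depth. A count of 0 allowed a level of up to 0.119 CPM in the most sensitive library, frozen brain, and up to 0.292 CPM in the least sensitive, frozen heart.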

How the data were processed

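Tissue RNA was taken up in Trizol (FFPE tissue was first freed of paraffin), and total RNA was fragmented by ultrasound, per the labels' protocols. The submitters' processing notes name HISAT2, featureCounts and limma, with no version, and genome mm10. The gene annotation, its strand setting and the scaling were not given in the sources used here, so overlapping and antisense genes cannot be told apart. The authors deposited log2 CPM values with 0.5 read added to each count. Dividing by the step of 1 read gave whole reads for 100% of values (within 1e-06), and comparing their totals with the deposited scale gave a library size factor of 0.500 to 1.76. CPM are per 1000000 of that scaled size.

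The genes, gene lists and tests were chosen with earlier results of these data known. The named genes followed a rule of size within each comparison, and 3 tested transporter genes that enter the counts are not reported here by name. The 15819 genes above 1 CPM in at least 2 libraries entered a trended linear model (limma 3.58.1, R 4.3.3) with a term for organ and a term for preservation (3 residual degrees of freedom, prior 5.35). Each organ was set against the mean of the others, liver against kidney, and FFPE against frozen tissue with organ as the block. A call needed an adjusted p (Benjamini-Hochberg, over all tested genes) under 0.05. The code of the fit was tried on simulated reads with known changes and random spread alone. That trial cannot speak to variation between the organs or animals of these data. Levels of 0 were set to 3 reads for bounds. Exon length came from the GENCODE annotation of GRCm38, in which all 99 genes were found, and promoters from RefSeq (GRCm38.p6). Paralogs were compared by coding nucleotides, in place of the protein identity first planned. Alternatives were other filters, scalings, pseudocounts, variance models, voom, removal of length and GC trends (FFPE comparison), no preservation term (organ comparisons) and leaving out each library. Reads that carry no molecular identifier may be copies of 1 molecule, and every interval or floor therefore covers counting error alone.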

Additional observations from a re-analysis of the deposited data

Results flagged for a closer look

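For the 26 genes named in the FFPE comparison or by its 2-fold counts, the FFPE minus frozen log2 difference of each organ was set beside that of the other 3 organs, and 3 had 1 organ far from the rest (past Dixon's 95% limit for 4 values). Chance passes that limit in about 1 in 20 groups, but these genes were chosen in part for a large difference in 1 organ, so that rate does not apply and the 3 are given as a description. Abcc8 had a difference of −0.37 in kidney, on 3 reads in the FFPE library and 3 in the frozen library. FFPE exceeded frozen tissue in brain and heart, while the positive value in liver rested on 1 read in FFPE and 0 in frozen tissue. Slc22a21, a carnitine carrier with 91.5% coding identity to Slc22a5, had a difference of −0.71 in brain, on 11 reads in FFPE brain and 26 in frozen brain, and was higher in FFPE tissue elsewhere. Slc22a23, an Slc22 gene with no settled substrate, had a difference of 1.44 in heart, with 12.8 CPM in FFPE heart and 4.68 CPM in frozen heart.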

How the results depend on the processing

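Total reads in place of the authors' scaling moved the median of all genes to 0.98 in brain and −1.03 in heart. It became 0.20 in kidney, −0.46 in liver and 0.54 for FFPE against frozen tissue. With that scaling 30 of the 84 genes were called higher in brain, 9 higher in heart and 16 higher in FFPE tissue. Of all 15819 tested genes, 9043 were called higher in brain, 1649 in heart and 3652 in FFPE tissue. Without a mean-variance trend 0 were called higher and 0 lower in FFPE tissue, the same as over all tested genes. The lower count was also 0 with quantile normalization and with log2(CPM + 5), while voom on the recovered reads gave 4 higher and 3 lower. Over all 15819 tested genes the lower counts were 213 and 211, and voom gave 572 higher and 835 lower. Without both brain libraries, an alternative chosen after seeing the data, 0 were higher and 0 lower, where 1 and 1 of all tested genes were called. With each library left out in turn, the higher and lower counts were 13 to 19 and 33 to 46 in brain, 14 to 16 and 35 to 44 in heart, 28 to 35 and 14 to 25 in kidney (14 without frozen kidney), 33 to 41 and 23 to 29 in liver, 21 to 32 and 24 to 29 in liver against kidney, and 0 to 0 and 0 to 1 in FFPE tissue. Other counts over these settings stayed within 1.5 times, and no direction reversed. Of 1633 values of single named genes under the alternatives, 1603 stayed on their side of the threshold, 26 lost a call and 4 gained one. The causes were not tested. No paired analysis was possible because the labels give no replicate numbers, and organ is already the block of the FFPE comparison. With 1 library a group, no difference within 1 organ has a replicate check.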

Other observations

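A further list held 11 genes, either partners of Abc proteins or Abc proteins by fold whose symbols lie outside the family rule. Of these, 8 were called higher in liver and 2 lower, where 27.3% and 35.2% of all tested genes were called. The 2 lower genes were the channel subunits Kcnj8 and Kcnj11, with log2 differences of −1.25 and −7.33. The peroxisomal import receptor Pex5 had 68.4 and 99.0 CPM in FFPE and frozen liver and 11.4 to 37.5 CPM elsewhere. Pex16, which helps to form the peroxisome membrane, had 27.2 and 32.5 CPM in FFPE and frozen liver and 4.91 to 10.7 CPM elsewhere. Cftr, a chloride channel of the Abcc fold whose symbol lies outside the family rule, had 5.08 and 8.08 CPM in FFPE and frozen kidney, 1.12 and 1.98 CPM in brain, and 0 reads in heart. The antigen peptide pump subunits Tap1 and Tap2, also Abc proteins by fold, had 16.5 and 18.5 CPM (Tap1) and 11.7 and 15.2 CPM (Tap2) in FFPE and frozen liver. Tap2 was as high in heart, with 16.2 and 15.8 CPM in FFPE and frozen tissue.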
